A study of Mus musculus with 8 samples.

Results

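The cell division and DNA replication genes described here are a list of 40 genes that a cell uses to copy its DNA and to divide. Of them, 18 act in DNA replication (S phase) and 22 in mitosis. Members were found by symbol among probe sets annotated to that gene alone, and the probe set that was brightest on average over the 8 arrays stood for each gene. This gave 39 genes, 18 for replication and 21 for mitosis, out of 18193 genes with a probe set. Ccnb1 is not analysed here. All 39 passed the level filter, and they were tested together with the other genes, 13586 in all.

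Each array held biotin-labelled RNA from newborn BALB/c mice on postnatal day 1, from tissue labelled as the rear of the palate. Pregnant dams carried an osmotic minipump under the skin, which delivered sterile saline to the controls and 1 of 3 nicotine doses (1.5, 3.0 or 4.5 mg/kg/day) to the rest, and gave birth naturally. The 4 groups, saline and nicotine 1.5, 3.0 and 4.5, had 2 arrays each, which the labels call biological replicates. The labels do not say how many pups or litters stand behind an array, so p-values measure the spread between these samples.

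Dividing cells make the products of these genes in order. In late G1, E2F factors switch on genes that load the MCM helicase onto DNA, supply nucleotides and start replication. In G2, a later wave, bound by the MuvB complex through CHR elements, provides the cyclins, kinases, motors and checkpoint proteins of mitosis. Promoters of this later wave often hold CCAAT boxes as well. Transcripts of both waves are scarce in cells that have left the cycle, so their level in a tissue is widely read as a sign of how many of its cells are dividing. In a bulk sample, fewer cells of a type and less RNA per cell cannot be told apart.

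All levels below are log2(intensity + 16) after quantile normalization, and differences are log2 differences with the standard error of the fit. Median intensities per array lay between 20.67 and 25.37. Genes typical of other organs stood high in some arrays. Stomach genes stood at a median of 7.86 and 8.04 under saline and of 4.61 to 4.83 under nicotine, and intestine genes had 10.04 and 8.51 against 4.58 to 5.93. Liver genes were at 8.55 and 11.67 in saline and 10.00 in nicotine 1.5 replicate 2, and at 4.26 to 4.48 elsewhere. Brown fat genes ran the other way, at 6.31 and 5.91 in saline and 9.48 to 11.27 at nicotine 3.0 and 4.5. Genes that pattern the palate and face were near background in all 8 arrays, with medians of 4.96 to 5.43 and 3 or 4 of 11 above the 60th percentile of all probe sets (5.74). Skeletal muscle genes were high throughout, with medians of 10.80 to 12.08. The actin probe sets at the 3' and 5' ends, whose ratio grows as RNA degrades, gave ratios of 1.74 and 1.65 in saline and of 0.95 to 1.39 under nicotine.

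**Figure D1:**
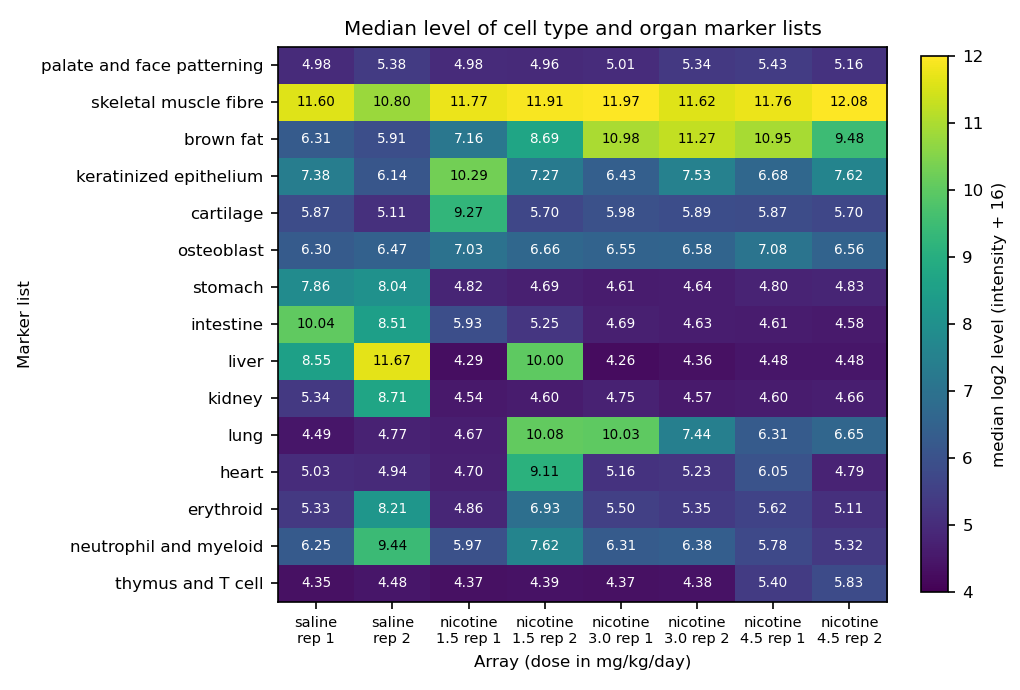
Median log2 level (intensity + 16) of 15 marker lists (rows) in each of the 8 arrays (columns, dose in mg/kg/day), with the value printed in each cell. Stomach and intestine genes are high in both saline arrays, liver genes in saline replicates 1 and 2 and nicotine 1.5 replicate 2, and palate and face genes stay between 4.96 and 5.43.

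Promoter sequences differed between the classes. RefSeq promoters (GRCm38.p6, 250 bases before to 50 after the start) were found for 31 of the 39 genes, 14 for replication and 17 for mitosis; Aurkb, Ccna2, Ccne2, Gins1, Gins2, Kif20a, Mcm4 and Tpx2 had no entry. A CHR core, searched as TTTGAA or TTCGAA on both strands, was present in 14 of 17 mitosis promoters (82.4%) and in 3 of 14 replication promoters (21.4%), against 21.7% of all 27025 genes in the table. The CCAAT box, searched as CCAAT on both strands, was present in 15 of 17 (88.2%) and 9 of 14 (64.3%), against 41.1%. An E2F site, searched on both strands as TTTGGCGC, TTTCCCGC, TTTGGCGG, TTTCGCGC, GGCGGGAA or GGCGCGAA, was present in 7 of 14 replication promoters (50.0%) and in 1 of 17 mitosis promoters (5.88%), that of Cdk1, against 4.91% of all. These E2F strings overlap one another, but each gene counts once however many matches it has. CHR and CCAAT stood together in 14 mitosis and 3 replication promoters, against 8.61% of all genes. A match is a description of letters and not a bound site.

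For 7 genes the 150 bases before the start are printed 5' to 3' in transcript orientation, with matches in capitals. Pcna, Mcm2, Cdca8, Kif11 and Cdc20 have some of the smallest p-values of their class, and Mcm6 and Cdk1 were chosen because they show the E2F string and the pair of CHR and CCAAT. Cdt1 has its only match, TTTGGCGC, after the start and is not printed.
Pcna, chr2:132253181-132253330, minus strand: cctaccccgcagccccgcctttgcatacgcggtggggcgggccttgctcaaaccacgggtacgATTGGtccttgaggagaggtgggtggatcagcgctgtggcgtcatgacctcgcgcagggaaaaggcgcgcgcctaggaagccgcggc
Mcm2, chr6:88898781-88898930, minus strand: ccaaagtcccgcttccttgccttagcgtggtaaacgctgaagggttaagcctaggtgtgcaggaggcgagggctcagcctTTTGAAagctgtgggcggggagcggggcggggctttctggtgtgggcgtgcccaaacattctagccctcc
Mcm6, chr1:128359706-128359855, minus strand: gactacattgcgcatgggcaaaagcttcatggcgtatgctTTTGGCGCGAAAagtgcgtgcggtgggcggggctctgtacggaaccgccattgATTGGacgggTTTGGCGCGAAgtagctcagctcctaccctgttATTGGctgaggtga
Cdca8, chr4:124936918-124937067, minus strand: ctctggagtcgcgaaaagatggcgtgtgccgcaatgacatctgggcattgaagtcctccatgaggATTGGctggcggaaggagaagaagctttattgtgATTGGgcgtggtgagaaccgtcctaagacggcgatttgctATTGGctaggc
Kif11, chr19:37376232-37376381, plus strand: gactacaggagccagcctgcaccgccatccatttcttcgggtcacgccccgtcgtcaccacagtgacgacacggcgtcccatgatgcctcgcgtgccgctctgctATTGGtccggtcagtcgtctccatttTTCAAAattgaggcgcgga
Cdc20, chr4:118437344-118437493, minus strand: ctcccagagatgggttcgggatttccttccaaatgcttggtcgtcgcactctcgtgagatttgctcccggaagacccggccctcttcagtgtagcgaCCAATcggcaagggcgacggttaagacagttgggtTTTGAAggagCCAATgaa
Cdk1, chr10:69352913-69353062, minus strand: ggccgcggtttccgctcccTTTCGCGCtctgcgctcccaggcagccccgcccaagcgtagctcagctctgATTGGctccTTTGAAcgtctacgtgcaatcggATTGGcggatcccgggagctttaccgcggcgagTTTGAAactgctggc
In Mcm6 the capitals hold 2 clusters of overlapping E2F strings and 2 CCAAT boxes in reverse (ATTGG). Cdk1 carries 2 CHR cores, 2 reversed CCAAT boxes and 1 E2F string. Cdc20 and Kif11 carry 1 CHR core each close to the start, in Kif11 on the other strand (TTCAAA), and Cdca8 shows 3 reversed CCAAT boxes, its CHR core lying outside the printed bases.

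In the mean of the nicotine doses most genes of both classes lay below saline, but few passed the test. In the mean of the 3 doses against saline, 2 of 18 replication genes fell, Mcm4 and Ccne2, and 0 of 21 mitosis genes did (limma, Benjamini-Hochberg adjusted p under 0.05), while 5.40% of all genes tested were called lower. None of the 39 was called higher. At an unadjusted p under 0.05, 9 of 18 replication genes and 5 of 21 mitosis genes were lower, against 13.8% of all. The median difference was -0.69 over the 18 replication genes, of which 17 lay below 0, and -0.44 over the 21 mitosis genes, of which 19 did, beside 0.04 over all 18193 genes. Saline replicate 2 weighs heavily in these values. Without it the medians were -0.30 and -0.08, and without saline replicate 1 they were -0.98 and -0.81. More members were called without saline replicate 1 and fewer without nicotine 1.5 replicate 2, as were more and fewer of all genes. None was called without saline replicate 2 or without any 1 of the 3.0 or 4.5 arrays, when fewer of all genes were called.

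**Figure D2:**
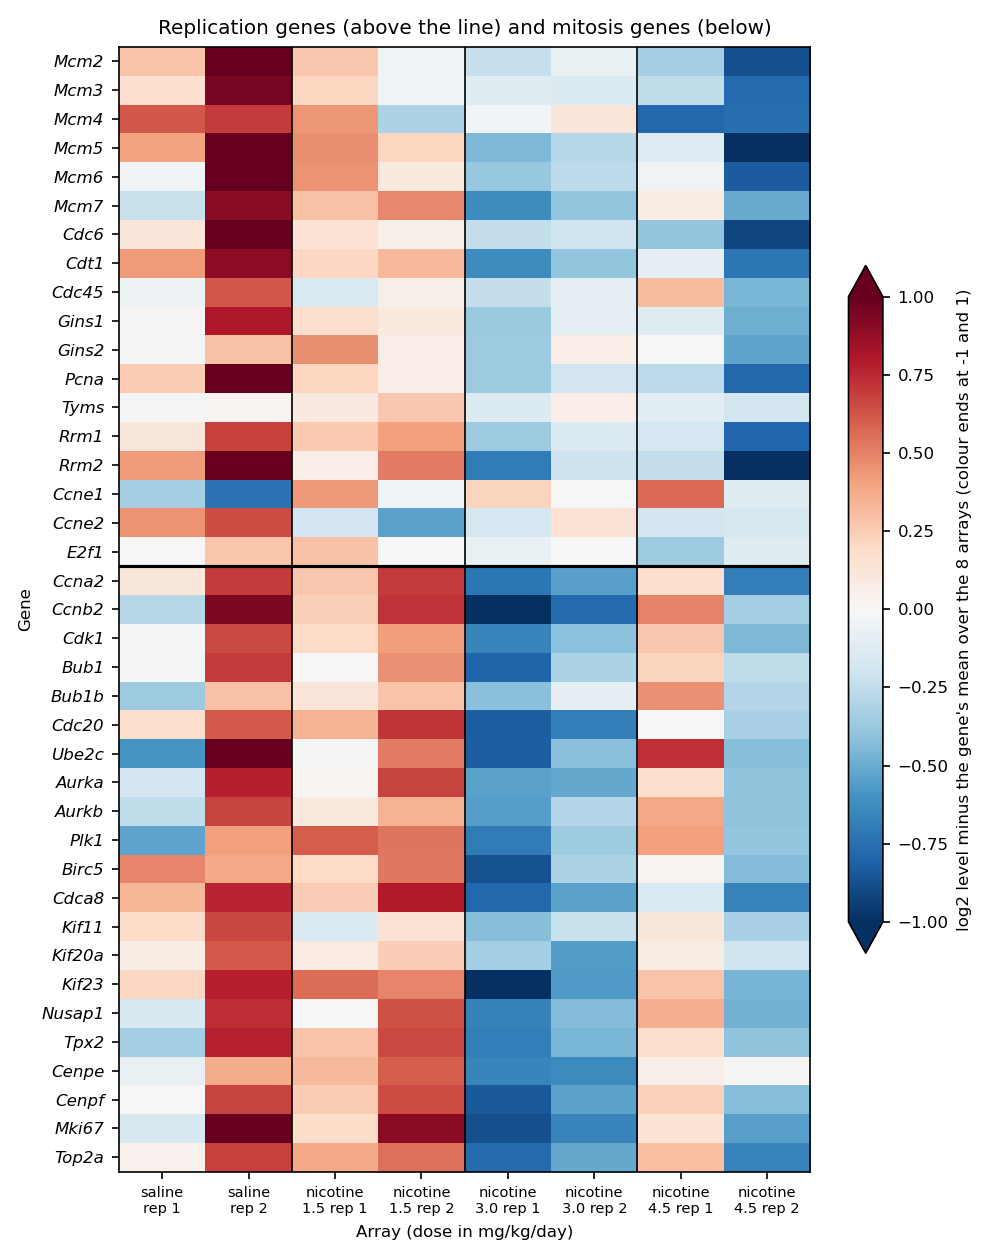
Each row is 1 of 39 genes and each column 1 of 8 arrays; colour is the log2 level minus the gene's mean over the 8 arrays, red above and blue below. Saline replicate 2 holds the highest value of 14 of 18 replication and 15 of 21 mitosis genes, nicotine 4.5 replicate 2 the lowest of 13 replication genes, and nicotine 3.0 replicate 1 the lowest of 20 mitosis genes.

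Origin licensing, the loading of the MCM2-7 helicase onto DNA by Cdc6 and Cdt1, was represented by 8 genes. All 8 of these genes lay below 0 in the mean of the doses, with a median of -0.87 and a range of -1.10 to -0.45. Mcm4, a helicase subunit, was at 8.23 and 8.31 in saline, 8.05 and 7.29 at nicotine 1.5, 7.58 and 7.73 at 3.0, and 6.82 and 6.85 at 4.5. Every nicotine array was below both saline arrays and both 4.5 arrays were below all others. In deposited intensity Mcm4 stood at 296 and 321 in saline and at 91.9 and 93.9 at 4.5. It fell by 0.88 ± 0.21 in the mean of the doses (limma, adjusted p = 0.0468) and by 1.43 ± 0.26 at 4.5 (adjusted p = 0.0288). The call for the mean held in 7 of 18 alternative settings (adjusted p 0.0152 to 0.154) and that at 4.5 in 11 of 18 (0.01 to 0.124). Without saline replicate 2 neither was made (0.154 and 0.0737), without saline replicate 1 only that at 4.5 was (0.105 and 0.0460), and without any 1 of the 3.0 or 4.5 arrays neither was. The other probe set of Mcm4 above the level filter gave a difference of -0.81.

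Mcm2, another helicase subunit, was at 8.30 and 9.01 in saline, 8.28 and 7.97 at 1.5, 7.78 and 7.94 at 3.0, and 7.68 and 7.13 at 4.5. Its arrays did not overlap with saline, although nicotine 1.5 replicate 1 lay close to saline replicate 1. The difference was -0.86 ± 0.25 for the mean (limma, adjusted p = 0.0698) and -1.25 ± 0.30 at 4.5 (0.0549), short of the threshold. Cdt1, the licensing factor that is destroyed once S phase begins, was at 8.37 and 8.84 in saline, 8.15 and 8.27 at 1.5, 7.32 and 7.55 at 3.0, and 7.85 and 7.22 at 4.5. All 6 nicotine arrays lay below saline, with the lowest values at the upper doses, and the mean difference was -0.88 ± 0.22 (limma, adjusted p = 0.0515). The remaining licensing genes, Mcm3, Mcm5, Mcm6, Mcm7 and Cdc6, the loader of the helicase, had mean differences of -0.74, -1.10, -0.64, -0.45 and -1.03. None of them passed the test, and each overlapped with saline in at least 1 nicotine array.

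Cdc45, Gins1 and Gins2, which join the loaded MCM ring to form the active helicase, differed from saline by -0.38, -0.54 and -0.19 in the mean of the doses (limma, adjusted p 0.174 to 0.597). Pcna, the sliding clamp that holds the polymerases on DNA, was at 9.59 and 10.40 in saline, 9.55 and 9.40 at 1.5, 8.97 and 9.14 at 3.0, and 9.07 and 8.55 at 4.5. Each nicotine array lay below both saline arrays, nicotine 1.5 replicate 1 by the smallest margin. The difference was -0.88 ± 0.25 for the mean and -1.18 ± 0.31 at 4.5 (limma, adjusted p = 0.0692 and 0.0658).

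Of the nucleotide supply genes, Rrm2, the small subunit of ribonucleotide reductase that is made in S phase, had the most negative difference of all 39 members in the mean of the doses. It was at 8.68 and 9.71 in saline, 8.32 and 8.77 at 1.5, 7.56 and 8.05 at 3.0, and 8.02 and 6.94 at 4.5. The 3.0 and 4.5 arrays lay below both saline arrays, while nicotine 1.5 replicate 2 lay between them. The difference was -1.72 ± 0.47 at 4.5 and -1.26 ± 0.38 in the mean (limma, adjusted p = 0.0725 and 0.0807), and its 2 other probe sets gave -1.06 and -1.36. The large subunit gene Rrm1 had a mean difference of -0.53 ± 0.23 (adjusted p = 0.171). Tyms, which makes thymidylate, was near background at 4.78 to 5.24 in all arrays, with a mean difference of 0.00 ± 0.14 (adjusted p = 0.988), where the added 16 shrinks any change.

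The G1/S control genes did not move together. Ccne2 and Ccne1 encode E-type cyclins, which drive entry into S phase with Cdk2. Ccne2 was at 7.26 and 7.47 in saline, 6.62 and 6.28 at 1.5, 6.64 and 6.96 at 3.0, and 6.63 and 6.65 at 4.5. Its 6 nicotine arrays all lay below saline, with no order by dose, and the lowest was at 1.5. It fell by 0.73 ± 0.17 in the mean of the doses (limma, adjusted p = 0.0410), a call that held in 8 of 18 alternative settings (0.0231 to 0.155) and was lost without saline replicate 1 (0.0657), without saline replicate 2 (0.155), without nicotine 1.5 replicate 2 and without any 1 of the 3.0 or 4.5 arrays. Ccne1 was at 7.02 and 6.62 in saline, 7.79 and 7.32 at 1.5, 7.58 and 7.36 at 3.0, and 7.92 and 7.23 at 4.5. Its nicotine arrays all lay above saline, with a mean difference of 0.72 ± 0.24 (limma, adjusted p = 0.106). The direction of Ccne1 depends on the probe set: its other one above the filter gave -0.53, and the mean of both gave 0.09. E2f1, the transcription factor of the G1/S wave, was at 5.32 and 5.60 in saline, 5.62 and 5.33 at 1.5, 5.25 and 5.32 at 3.0, and 4.96 and 5.20 at 4.5. Those values overlapped at 1.5, and the mean difference was -0.18 ± 0.16 (limma, adjusted p = 0.484).

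**Figure D3:**
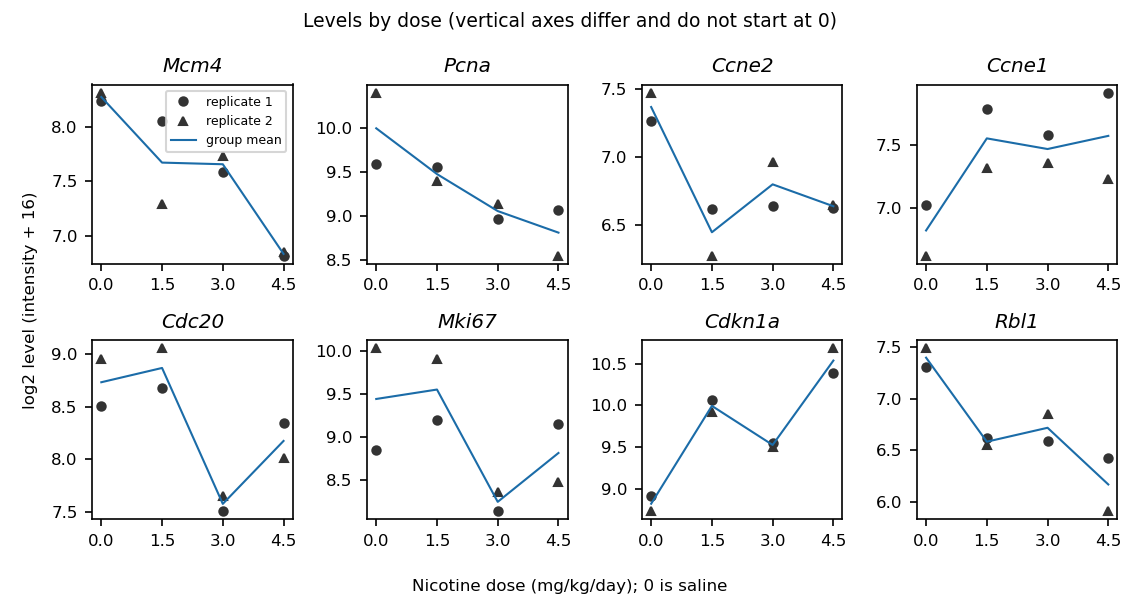
Log2 level (intensity + 16) against nicotine dose in mg/kg/day (0 is saline) for 6 list members and for Cdkn1a and Rbl1; circles are replicate 1, triangles replicate 2, and the line joins the group means. Mcm4 is at 6.82 and 6.85 at the top dose against 8.23 and 8.31 in saline, while Cdc20 and Mki67 have their lowest values at 3.0.

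At the level of the whole class, replication genes had lower medians at each higher dose. Against saline the median difference was -0.36 at 1.5, -0.67 at 3.0 and -0.90 at 4.5, with 13, 17 and 17 of 18 genes below 0. Without nicotine 4.5 replicate 2 the 4.5 median was -0.66, level with 3.0, and without nicotine 4.5 replicate 1 it was -1.25. The 3 comparisons share the saline arrays, so their values stand side by side and are not independent. At 1.5, 0 of the 39 genes were called by limma (2.48% of all genes tested), and at an unadjusted p under 0.05 only Ccne2 was lower (-0.92 ± 0.21, limma adjusted p = 0.0739), against 10.0% of all. Without saline replicate 1, Cdc6 was called at 1.5, but more of all genes were called then too. At 4.5, Mcm4 alone was called lower, against 3.99% of all, and 11 of 18 replication genes and 2 of 21 mitosis genes were lower at an unadjusted p under 0.05, against 13.4%. Both 4.5 arrays lay below both saline arrays for 13 of 18 replication and 4 of 21 mitosis genes, against 24.8% of all. More members were called at 4.5 without saline replicate 1, as were more of all genes. None was called without saline replicate 2 or without any 1 of the 3.0 or 4.5 arrays, when fewer of all genes were called.

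None of the 39 genes passed the test of the slope over dose (limma; 0.802% of all genes tested did), and at an unadjusted p under 0.05 the slope was negative for 11 of 18 replication and 3 of 21 mitosis genes, against 12.5%. The smallest p-values were those of Mcm4, with -0.29 ± 0.06 log2 per mg/kg/day, Mcm2 with -0.27 ± 0.06, Pcna with -0.26 ± 0.06 and Rrm2 with -0.39 ± 0.09 (limma, adjusted p 0.0538 to 0.0608). Among mitosis genes they were those of Cdca8 (-0.27 ± 0.08), Birc5 (-0.19 ± 0.07), Ccna2 (-0.21 ± 0.09) and Kif11 (-0.13 ± 0.06), with limma adjusted p of 0.0882 to 0.195. Without nicotine 1.5 replicate 2, Mcm2, Mcm4 and Pcna passed the slope test, but more of all genes passed then too. The test for any difference among the 4 groups called 0 members (limma; 1.97% of all), with 8 of 18 and 7 of 21 at an unadjusted p under 0.05, against 22.5% of all. It called Cdc6 without saline replicate 1 and Mcm4 without either 1.5 array, in fits that also called more of all genes.

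**Figure D4:**
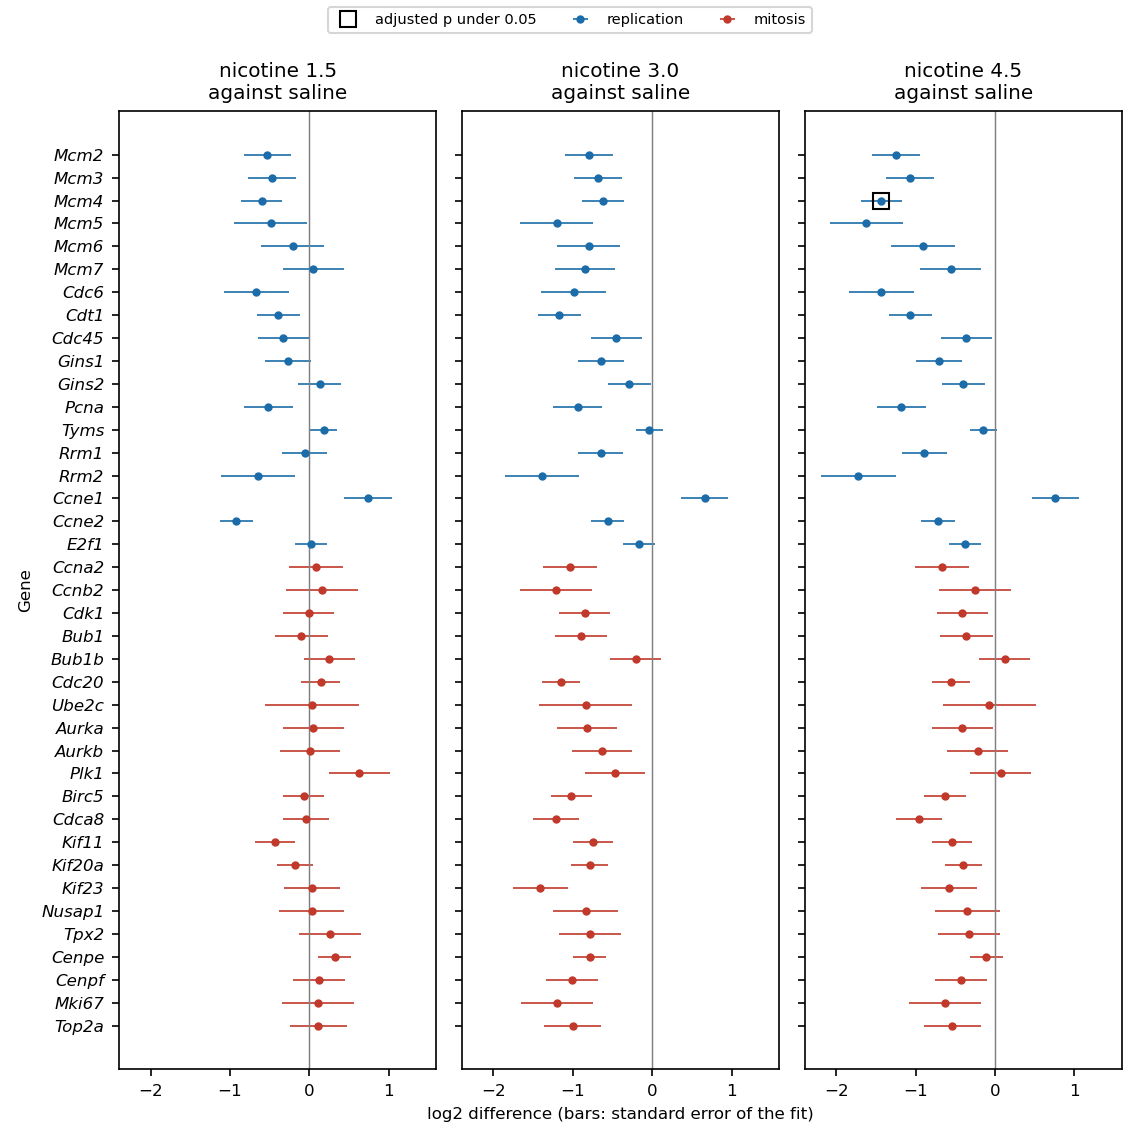
Log2 difference from saline (x axis) for each of 39 genes at nicotine 1.5, 3.0 and 4.5 mg/kg/day; points are limma estimates, bars their standard errors, blue for replication and red for mitosis. The median mitosis gene lies at 0.05, -0.85 and -0.41 in the 3 panels and the median replication gene at -0.36, -0.67 and -0.90; the square marks Mcm4 at 4.5, with an adjusted p under 0.05.

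Mitosis genes followed another order over the doses, with the lowest levels at nicotine 3.0. Their median difference from saline was 0.05 at 1.5, -0.85 at 3.0 and -0.41 at 4.5, with 6, 21 and 19 of 21 genes below 0. The 4.5 median was -0.10 without nicotine 4.5 replicate 2 and -0.71 without nicotine 4.5 replicate 1, and the 1.5 median ran from -0.30 to 0.46 when any array was left out. At 3.0, 0 of the 39 genes were called by limma (3.73% of all genes tested), but 14 of 21 mitosis genes and 7 of 18 replication genes were lower at an unadjusted p under 0.05, against 10.8%. Both 3.0 arrays lay below both saline arrays for 18 of 21 mitosis and 14 of 18 replication genes, against 25.4% of all. The mitosis median at 3.0 was -1.30 without saline replicate 1 and -0.54 without saline replicate 2. More members were called at 3.0 without saline replicate 1, as were more of all genes.

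Among the cyclins and their kinase, Cdk1, which drives entry into mitosis, was at 8.59 and 9.27 in saline, 8.81 and 9.03 at 1.5, 7.95 and 8.20 at 3.0, and 8.88 and 8.16 at 4.5. The 3.0 arrays and nicotine 4.5 replicate 2 lay below both saline arrays, and the other nicotine arrays lay between them (3.0 against saline -0.85 ± 0.32, limma adjusted p = 0.165). Ccna2, cyclin A of S phase and G2, was at 8.89 and 9.48, then 9.05 and 9.48, 8.06 and 8.24, and 8.95 and 8.09 in the same order of groups, with -1.04 ± 0.34 at 3.0 (adjusted p = 0.133). Its replicates at 4.5 were apart, with 1 above and 1 below the lower saline array. Ccnb2, a cyclin B that partners Cdk1, differed from saline by -1.21 ± 0.45 at 3.0 and by -0.25 ± 0.45 at 4.5 (limma, adjusted p = 0.164 and 0.741).

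The spindle checkpoint and the anaphase-promoting complex were led by Cdc20, the activator that lets chromatids part. Cdc20 was at 8.51 and 8.95 in saline, 8.68 and 9.05 at 1.5, 7.51 and 7.65 at 3.0, and 8.34 and 8.01 at 4.5. The 3.0 arrays were the lowest, the 4.5 arrays next, and saline and 1.5 overlapped. The difference was -1.15 ± 0.24 at 3.0 (limma, adjusted p = 0.0521) and -0.52 ± 0.19 in the mean (0.127). The probe sets of Cdc20 disagreed in the mean of the doses, the others giving 0.00 and -0.47. Bub1, a checkpoint kinase, and Ube2c, the ubiquitin-conjugating enzyme of that complex, had differences of -0.90 and -0.84 at 3.0 and -0.36 and -0.07 at 4.5. Bub1b, also of the checkpoint, differed least at 3.0, by -0.21 ± 0.32.

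Among mitotic kinases and the chromosomal passenger complex, which corrects spindle attachments, Cdca8 and Birc5 had the smallest p-values. Cdca8, the Borealin subunit, was at 7.64 and 8.07 in saline, 7.55 and 8.10 at 1.5, 6.52 and 6.77 at 3.0, and 7.15 and 6.64 at 4.5. The 3.0 and 4.5 arrays lay below both saline arrays and 1.5 overlapped with saline. The difference was -1.21 ± 0.29 at 3.0 and -0.96 ± 0.29 at 4.5 (limma, adjusted p = 0.0701 and 0.0860). Birc5, the survivin subunit, was at 8.68 and 8.58, then 8.39 and 8.72, 7.32 and 7.88, and 8.22 and 7.76. Its saline replicates were close together, and the difference at 3.0 was -1.02 ± 0.26 (limma, adjusted p = 0.0839). The kinases Aurka, Aurkb and Plk1 had differences of -0.82, -0.63 and -0.47 at 3.0 (limma, adjusted p 0.237 to 0.476) and lay within 0.41 of saline at 4.5.

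Of the spindle motors and microtubule binders, Kif11, the motor that pushes spindle poles apart, was at 6.67 and 7.14 in saline, 6.33 and 6.62 at 1.5, 6.05 and 6.25 at 3.0, and 6.59 and 6.15 at 4.5. It was the only mitosis gene with all 6 nicotine arrays below both saline arrays, a pattern that 5 replication genes, Ccne2, Cdt1, Mcm2, Mcm4 and Pcna, also had, against 12.6% of all genes. The mean difference of Kif11 was -0.57 ± 0.20 (limma, adjusted p = 0.115). Kif23, a motor of the central spindle named here after its values were seen, was at 7.18 and 7.75, then 7.53 and 7.46, 5.69 and 6.41, and 7.26 and 6.51. Its 3.0 arrays lay below all others, at -1.41 ± 0.35 from saline (limma, adjusted p = 0.0784), the most negative mitosis difference in any dose. Kif20a, Nusap1 and Tpx2 had differences of -0.79, -0.84 and -0.78 at 3.0 and of -0.40, -0.35 and -0.33 at 4.5.

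At the kinetochore, the motor Cenpe, also named after its values were seen, was at 6.24 and 6.69 in saline, 6.64 and 6.92 at 1.5, 5.66 and 5.68 at 3.0, and 6.38 and 6.33 at 4.5. The 3.0 replicates were nearly equal and lay below all others (3.0 against saline -0.79 ± 0.21, limma adjusted p = 0.0881). Cenpf, a kinetochore protein of G2 and mitosis, had -1.01 ± 0.33 at 3.0 (adjusted p = 0.125). Mki67, the Ki-67 protein that coats mitotic chromosomes and marks cycling cells, was at 8.85 and 10.03 in saline, 9.19 and 9.91 at 1.5, 8.13 and 8.35 at 3.0, and 9.15 and 8.47 at 4.5. Its saline replicates were far apart, and only the 3.0 arrays and nicotine 4.5 replicate 2 lay below both. The mean difference of Mki67 was -0.57 ± 0.36 (limma, adjusted p = 0.324) and became 0.02 without saline replicate 2. Top2a, the topoisomerase that untangles sister chromatids, was at 8.57 and 9.21, then 8.91 and 9.08, 7.76 and 8.02, and 8.83 and 7.86. As in Ccna2, the 4.5 replicates were apart, and the mean difference was -0.48 ± 0.29 (limma, adjusted p = 0.305).

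**Figure D5:**
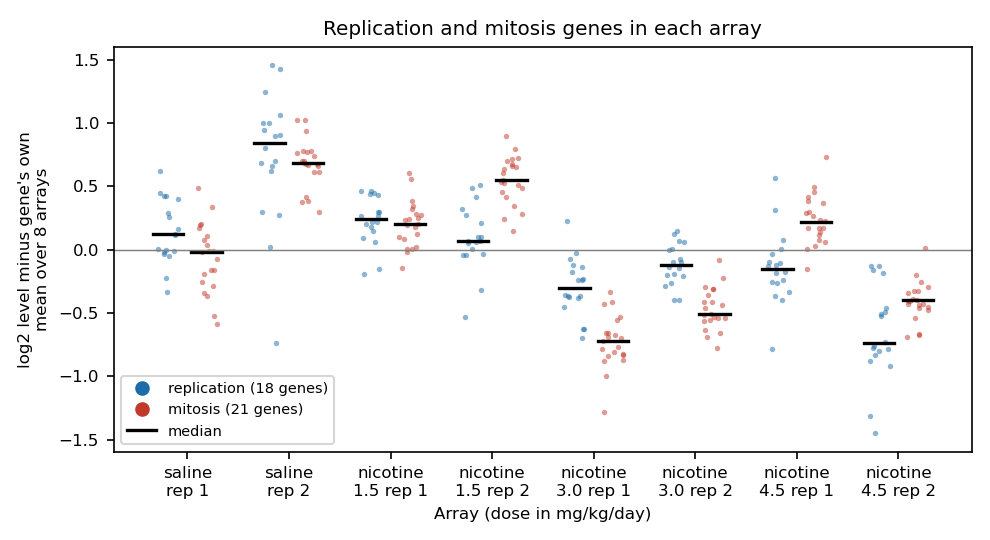
Log2 level of each gene minus its own mean over the 8 arrays (y axis) in each array (x axis), blue for 18 replication and red for 21 mitosis genes, with black bars at the medians. The replication medians run from 0.84 in saline replicate 2 to -0.74 in nicotine 4.5 replicate 2, and the mitosis medians from 0.68 in saline replicate 2 to -0.72 in nicotine 3.0 replicate 1.

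Differences between doses do not use the levels in the saline arrays, while their standard errors pool the spread of all 4 groups. From 1.5 to 3.0, all 21 mitosis genes and 17 of 18 replication genes had negative differences, with medians of -1.04 and -0.35 beside 0.00 over all genes. No gene at all was called (limma; 0 of 39 members and 0.00% of all genes tested), while 15 of 21 mitosis genes but 1 of 18 replication genes, Cdt1, were lower at an unadjusted p under 0.05, against 4.31%. Both 3.0 arrays lay below both 1.5 arrays for 21 of 21 mitosis and 14 of 18 replication genes, against 24.2% of all. The smallest p-values were those of Cdc20, at -1.28 ± 0.24, and Cenpe, at -1.11 ± 0.21 (limma, adjusted p = 0.250 for each). The mitosis median stayed between -1.20 and -0.85 when any array was left out.

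From 3.0 to 4.5 the classes had medians of opposite sign, 0.46 for mitosis genes, all 21 of them above 0, and -0.18 for replication genes, 14 of 18 below 0. Again 0 members were called (limma; 0.00% of all genes tested). At an unadjusted p under 0.05, Cdc20 (0.60 ± 0.24) and Cenpe (0.68 ± 0.21) were higher, against 1.90% of all, and Mcm4 (-0.81 ± 0.26) was lower, against 2.03%. Both 4.5 arrays lay above both 3.0 arrays for 10 of 21 mitosis genes (19.6% of all genes did) and below them for 5 of 18 replication genes (18.8% did), Cdc6, E2f1, Mcm2, Mcm3 and Mcm4. The replication median was between -0.44 and 0.09 and the mitosis median between 0.16 and 0.80 when any array was left out, and the replication median turned to 0.09 without nicotine 4.5 replicate 2. The difference between the classes was not tested. From 1.5 to 4.5 the medians were -0.63 and -0.47, with 0 members called (limma; 0.00% of all), 5 of 18 and 2 of 21 lower at an unadjusted p under 0.05 (3.05% of all), and both 4.5 arrays below both 1.5 arrays for 15 of 18 and 12 of 21 (18.6% of all).

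The classes can also be compared array by array. The replication median minus the mitosis median, each gene relative to its own mean, was 0.14 and 0.17 in saline, 0.04 and -0.48 at 1.5, 0.42 and 0.39 at 3.0, and -0.38 and -0.34 at 4.5. Both arrays of 3.0 thus had mitosis genes lower than replication genes, and both arrays of 4.5 the reverse, while the 1.5 arrays differed from each other. Saline replicate 2, with the highest value of 14 replication and 15 mitosis genes, holds the highest value of 16.6% of all genes. Nicotine 4.5 replicate 2 had the lowest value of 13 of 18 replication genes, against 9.95% of all genes, and nicotine 3.0 replicate 1 that of 20 of 21 mitosis genes, against 5.42%.

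Blood-forming tissue, which the newborn liver holds, has many dividing cells, and its markers differed between arrays. Erythroid genes had medians of 5.33 and 8.21 in saline, 4.86 and 6.93 at 1.5, 5.50 and 5.35 at 3.0, and 5.62 and 5.11 at 4.5, with 4, 11, 3, 9, 4, 4, 5 and 3 of 12 genes above the 60th percentile. Neutrophil and myeloid genes were at 6.25 and 9.44, then 5.97 and 7.62, 6.31 and 6.38, and 5.78 and 5.32, with 6, 9, 6, 8, 6, 6, 5 and 4 of 9 above it. The summed intensity of the 10 liver genes was 13226 and 38594 in saline, 99 and 20196 at 1.5, and 64 to 108 at 3.0 and 4.5. The 2 arrays with the highest medians of these lists, saline replicate 2 and nicotine 1.5 replicate 2, were also the 2 with the highest mitosis medians, 0.68 and 0.55. Replication genes did not follow this order, with a median of 0.84 in saline replicate 2 but 0.07 in nicotine 1.5 replicate 2, below nicotine 1.5 replicate 1 (0.24) and saline replicate 1 (0.12). Intestine genes, summing to 20999 and 14758 in saline and 245 to 980 under nicotine, also separated the groups. Without saline replicate 2 and nicotine 1.5 replicate 2 the median difference in the mean of the doses was -0.29 for replication and -0.12 for mitosis genes. No member was then called in the mean, where fewer of all genes were, and Mcm4 was called at 4.5, where more were. Thymus and T cell genes, from another tissue with many dividing cells, were at 4.37 and 4.38 at 3.0 and at 5.40 and 5.83 at 4.5. Of 11 such genes, 0 and 0 were above the 60th percentile at 3.0 and 2 and 7 at 4.5, and in saline and at 1.5 the medians were 4.35 to 4.48. The mitosis medians were -0.72 and -0.51 at 3.0 and 0.22 and -0.40 at 4.5. Within 4.5, replicate 2 had the higher thymus median and the lower mitosis median, which compares only 2 arrays. Kidney genes were high in saline replicate 2 (8.71, against 4.54 to 5.34 elsewhere) and heart genes in nicotine 1.5 replicate 2 (9.11, against 4.70 to 6.05). In nicotine 1.5 replicate 1, cartilage genes were high (9.27, against 5.11 to 5.98 elsewhere), as were keratinized epithelium genes (10.29, against 6.14 to 7.62). Lung genes had a median of 10.08 in nicotine 1.5 replicate 2, of 10.03 and 7.44 at 3.0, and of 6.31 and 6.65 at 4.5, against 4.49 to 4.77 in the other 3 arrays. The part of the organ and tissue markers, brown fat genes and actin ratio in these results was not tested.

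Most other genes of the same processes also lay below 0, with medians closer to it. Of 27 other replication genes tested of 29 listed, 0 were called in the mean of the doses (limma; 10.2% of all genes tested were called in either direction), 23 lay below 0 and the median was -0.28. An unadjusted p under 0.05 in either direction was reached by 7 of the 27. Of all genes tested, 30.8% reached it in either direction and 13.8% were lower. The smallest p-values were those of Uhrf1, Dbf4, Pola1 and Rfc3 (limma, adjusted p 0.0821 to 0.122). Uhrf1, which copies DNA methylation to new strands, had -0.82 ± 0.25, and Dbf4, the activator of the Cdc7 kinase, had -0.58. Pola1, the polymerase subunit of the DNA polymerase alpha-primase complex, had -0.58, and Rfc3 of the clamp loader had -0.36. Of 30 other mitosis genes, 0 were called, 27 lay below 0 and the median was -0.25. An unadjusted p under 0.05 in either direction was reached by 7 of the 30, beside the same 30.8% and 13.8% of all. These 2 counts of 7 were not split by direction. Ect2, which starts the cleavage furrow, had -0.73 ± 0.18, Smc2 of condensin -0.65 ± 0.17, Incenp of the passenger complex -0.76 ± 0.20 and Cks2, a Cdk1 subunit, -1.26 ± 0.38 (limma, adjusted p 0.0509 to 0.0804). From 1.5 to 3.0 the median of these mitosis genes was -0.76, with 17 of 30 at an unadjusted p under 0.05, against 10.8% of all genes in either direction.

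The brakes of the cycle held the smallest adjusted p of the listed genes. Cdkn1a, the CDK inhibitor p21, was at 8.92 and 8.74 in saline, 10.07 and 9.92 at 1.5, 9.55 and 9.51 at 3.0, and 10.39 and 10.68 at 4.5. All nicotine arrays lay above saline, the 4.5 arrays highest and the 3.0 arrays lowest among the doses. Cdkn1a rose by 1.19 ± 0.15 in the mean of the doses, by 1.17 ± 0.18 at 1.5 and by 1.70 ± 0.18 at 4.5 (limma, adjusted p = 0.00726, 0.0313 and 0.00539), and its 0.70 ± 0.18 at 3.0 did not pass (0.0855). The calls in the mean and at 4.5 held in 18 of 18 alternative settings each, and that at 1.5 in 6 of 18. Rbl1, the p107 pocket protein that restrains E2F and is itself an E2F target, was at 7.31 and 7.49, then 6.62 and 6.55, 6.59 and 6.85, and 6.43 and 5.91. It fell by 0.91 ± 0.18 in the mean and by 1.23 ± 0.23 at 4.5 (limma, adjusted p = 0.0312 and 0.0293), each held in 9 of 18 settings. Without saline replicate 2 neither passed (0.119 and 0.0768), and with the mean of its probe sets the values were -0.28 and -0.38 (adjusted p = 0.147 and 0.129). These were the 2 called of 13 brakes tested of 14 listed, whose median difference was 0.33, beside 10.2% of all genes called in the mean of the doses and 6.90% at 4.5.

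Of 15 genes of G1 entry, E2f6 alone was called in the mean of the doses, where 10.2% of all genes were, and the list's median was -0.06. E2f6, a repressor of the E2F family, was at 7.65 and 7.43 in saline, 8.11 and 8.32 at 1.5, 8.32 and 8.34 at 3.0, and 8.39 and 8.56 at 4.5, so that every nicotine array was above saline. It rose by 0.80 ± 0.15 in the mean and by 0.94 ± 0.18 at 4.5 (limma, adjusted p = 0.0230 and 0.0318), in 13 and 8 of 18 alternative settings. Without saline replicate 2 both fell short of the threshold (0.0920 and 0.0815), as they did with the mean of its probe sets, at 0.44 and 0.56 (limma, adjusted p = 0.0591 and 0.0598).

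For 23 of the 39 members several probe sets passed the filter. In 16 of them all such probe sets lay on 1 side of 0 in the mean of the doses, and in 7, Bub1b, Ccne1, Cdc20, Cenpf, Mcm3, Rrm1 and Top2a, they lay on both sides. For Mcm2, Mcm5, Mcm6 and Cdca8 the other probe sets above the filter gave -0.80, -0.63, -0.89, and -0.40 and -0.55. Those of Mcm3 gave -0.06, -0.82, 0.03 and -0.83, and those of Mcm7 gave -0.11, -0.42 and -0.40. Cdt1 had -0.57 and Rrm1 0.00 in the other set, and Cenpe had -1.23 beside -0.19 in the set used.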

How the data were processed

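The authors deposited linear intensity values of 8 Affymetrix arrays with 45101 probe sets apiece; the summarization and scaling are not given in the sources used here. Per the labels, biotin-labelled total RNA came from 4 groups of 2 newborn mouse samples. Of the probe sets, 34945 named 1 gene. Values were taken as log2(intensity + 16), which understates changes of low genes, and quantile-normalized, since array medians differed by 0.17. The probe set with the highest mean stood for its gene, and genes whose mean was below 4.94, the 40th percentile over probe sets, were left out, leaving 13586 (74.7%). Columns of values left unused numbered 0. Group means were fitted with limma 3.58.1 in R 4.3.3 (4 residual and 6.85 total degrees of freedom), without a replicate block; the slope was a linear fit over dose. Tests were two-sided, with p-values adjusted by Benjamini-Hochberg over all genes tested and a threshold of 0.05. The procedure was tested on simulated data. The planted changes were larger than any member difference reported here, so recovery of smaller changes was not examined. The number of arrays limits the precision.

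Members, lists and tests were chosen with earlier results of these data known. Values in every array are given for members past the threshold, the 4 of each class with the smallest p in the mean of the doses and in the slope, and Mki67, Top2a, Pcna, Mcm2, Ccne1, E2f1 and Cdk1; for pathway lists, called genes or otherwise 4 with the smallest p. Alternatives changed the normalization, pseudocount, level filter, probe set rule, array weights, replicate block and arrays used.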

Additional observations from a re-analysis of the deposited data

How the results depend on the processing

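Each result was refitted under 18 alternatives (15 for medians). In the mean of the doses, 2 members were called; pseudocount 64 and a filter at the 60th percentile gave 3 each, pseudocount 1 gave 1, array weights, the replicate block and leaving out saline replicate 2 with nicotine 1.5 replicate 2 gave 0, and leaving out any array gave 0 to 5. At 1.5 (0 called) leaving out any array gave 0 to 1. At 3.0 (0 called) the mean of all probe sets gave 1 (Cenpe), array weights 1 (Cdc20), and leaving out any array 0 to 6. At 4.5 (1 called) values as deposited gave 3, array weights 0, the replicate block 0 and leaving out any array 0 to 8. For the slope (0 called) values as deposited gave 1, a filter at the 60th percentile 1 and leaving out any array 0 to 3. The test for any difference (0 called) gave 1 without the 2 arrays together and 0 to 1 without any array. Between doses, 0 members were called in all 18. With an array left out, the number of all genes called in the mean changed each time, and so did some member counts. The other member counts of such fits are not given here. Where a group keeps 1 array, it is assumed to vary like the others.

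Without saline replicate 2 and nicotine 1.5 replicate 2 together, the replication medians were -0.29 in the mean, 0.05 at 1.5 and -0.32 at 3.0, and the mitosis median at 4.5 was -0.04. Leaving out any array gave replication medians of -0.98 to -0.30 in the mean, -0.66 to -0.01 at 1.5, -1.06 to -0.32 at 3.0 and -1.25 to -0.61 at 4.5, and mitosis medians of -0.81 to -0.08, -0.30 to 0.46, -1.30 to -0.54 and -0.78 to -0.04. Leaving out any array gave Mki67 -1.16 to 0.02 in the mean, the latter without saline replicate 2, and E2f1 turned to 0.01 without both arrays.

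No clear pairing by replicate number was seen. The deviations of same-numbered arrays correlated at 0.33, 0.06, -0.21, -0.14, -0.18 and -0.22 in the 6 pairs of groups. With a single deviation per group, these values cannot exclude a pairing. With the replicate block the calls of Mcm4 (adjusted p = 0.0733 in the mean, 0.0516 at 4.5) and Ccne2 (0.0722) were not made.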
